A study of Mus musculus with 6 samples.

Results

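The genes described here encode the machinery that carries proteins into mitochondria. They are the 26 protein-coding genes, of 54838 in the count table, whose symbol begins with Timm or Tomm. The symbols came from GENCODE's mouse annotation. Of these genes, 9 encode proteins of the outer membrane, 6 encode small chaperones of the intermembrane space and 9 encode proteins of the inner membrane. The other 2 members carry the prefix but are not translocase subunits. These are Tomm34, a cytosolic cochaperone, and Timmdc1, an assembly factor of respiratory complex I. The symbol Tomm6os also begins this way, but it is not protein-coding and was left out.

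RNA from sorted I1DN leukemia cells was sequenced from 3 mice given vehicle and 3 mice given AG636. I1DN is a murine AML on a C57BL/6 background whose genotype the labels give as IDH1R132H, DNMT3AR882H and NrasG12D. All 6 samples carried these alleles, and all recipients were sublethally irradiated Ptprca mice. AG636 inhibits DHODH, the enzyme of pyrimidine synthesis that sits in the mitochondrial inner membrane, and was given orally at 100 mg/kg b.i.d. The labels do not state the age of the mice or how long they were treated, and the study's text and its supplement give different durations for these samples. The leukemia was made by introducing the mutant genes together into fetal liver progenitors and passed on by transplantation of cells from a diseased mouse, so the samples may share a leukemic origin. Cells came from bone marrow and spleen, and the sort is written as cKit+CD11b- in one place and as cKit high CD11b low in another.

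Most mitochondrial proteins are made in the cytosol and enter through the TOM complex of the outer membrane. Small TIM chaperones escort hydrophobic proteins across the intermembrane space. In the inner membrane, the TIM23 complex takes in proteins with a cleavable presequence, aided by a motor built on the Hsp70 of the matrix, and the TIM22 complex inserts carrier proteins.

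Totals ranged from 4634963 to 7906589 counts per sample. At this depth 3 counts, taken as the lowest readable level, corresponded to 0.392 to 0.637 CPM, the count of a gene scaled to the size of its library. Mitochondrially encoded transcripts made up 2.92% to 4.50% of the counts. The first principal component put all vehicle samples on one side and all AG636 samples on the other, with Vehicle replicate 1 the farthest out. Markers of maturing myeloid cells moved with treatment. The summed level of 9 neutrophil genes was 1036 to 2367 CPM with vehicle and 2888 to 5888 CPM with AG636, and 7 of the 9 were called higher. The sum of 7 monocyte and macrophage genes was 58.7 to 94.0 CPM with vehicle and 130 to 203 CPM with AG636, and 3 of the 7 were called higher. Sums of 6 immature myeloid genes overlapped, at 1891 to 3657 CPM with vehicle and 1305 to 3305 CPM with AG636, and none of the 5 tested was called. Kit was present in every sample at 31.8 to 46.3 CPM, while Itgam, which encodes CD11b, was called higher with AG636. Among 6.0 erythroid genes, 1.0 (Klf1) was called lower, and the summed level was 1618 to 4617 CPM with vehicle and 1931 to 3202 CPM with AG636. Of 4 megakaryocyte genes, 2 were called higher, with sums of 774 to 1203 CPM against 1045 to 1698 CPM. Pf4 and Ppbp were not called, with log2 fold changes of 0.25 and -0.74. Over all genes tested, 10.3% were called higher and 11.0% were called lower. The 6 B cell genes summed to at most 19.8 CPM and the 5 T cell genes to at most 3.40 CPM. Not one marker was at 0 in all samples. The part of these cell types in the results below was not tested. In bulk samples, fewer cells of a type and less RNA per cell cannot be told apart.

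The import genes took a smaller share of the scaled counts in the AG636 samples. Summed over the 26 members, the level was 3308, 2832 and 2931 CPM in the vehicle samples and 2311, 2252 and 2060 CPM in the AG636 samples. Every AG636 sample was below every vehicle sample. Of the 26 members, 23 had enough counts to test. With edgeR's quasi-likelihood test at a Benjamini-Hochberg adjusted p under 0.05, 10 of the 23 were called lower and 0 were called higher, and DESeq2 and limma-voom gave the same counts. Without adjustment, 14 had a p under 0.05, all of them lower with AG636, against 18.4% of all genes tested that had such a p and were lower, and 37.1% in either direction. Over all 11092 genes tested, 11.0% were called lower and 10.3% were called higher. Of all calls, 51.6% were thus lower, and 38.1% when counts were scaled by library size alone, under which 10 members were still called lower and 0 higher. Without AG636 replicate 3, 7 members were called. The median log2 fold change of the members was -0.55, ranging from -1.31 to -0.02, against a median of 0.03 for all genes tested. The log2 fold change was negative for all 23 members, although that of Tomm7 became 0.07 when counts were scaled by library size alone and 0.03 without AG636 replicate 2. All 3 AG636 samples were below all 3 vehicle samples for 15 of the 23 members, against 20.6% of all genes tested.

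**Figure D1:**
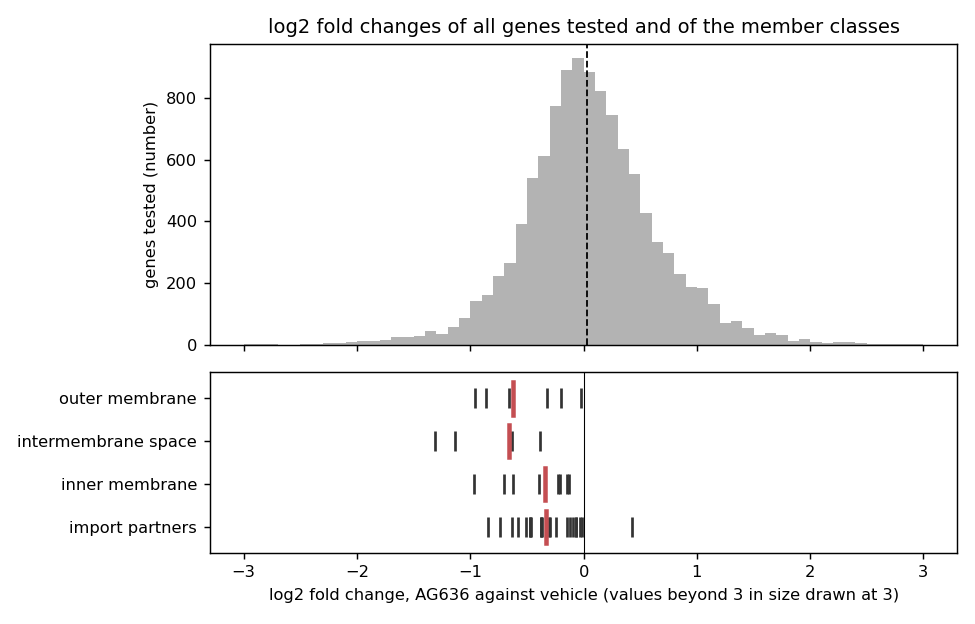
The upper panel is a histogram of the log2 fold changes (AG636 against vehicle) of the 11092 genes tested, with a dashed line at their median of 0.03. In the lower panel each black tick is a gene and each red bar is the median of its class, at -0.62 for outer membrane, -0.66 for intermembrane space and -0.34 for inner membrane members.

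Outer and inner membrane genes were set side by side, as the import path has its entry in one and its translocases for the matrix in the other. Of 7 outer membrane members tested, 4 were called lower, with a median log2 fold change of -0.62. Among the 9 inner membrane members tested, 2 were called lower, and the median was -0.34. Intermembrane space members had 4 calls among 5 tested and a median of -0.66. Over all genes tested, 11.0% were called lower and the median was 0.03. The difference between the classes was not tested, because genes are not replicates of a condition. Outer membrane members summed to 1981, 1622 and 1779 CPM with vehicle and to 1402, 1369 and 1221 CPM with AG636. Inner membrane members summed to 704, 669 and 611 CPM with vehicle and to 498, 512 and 490 CPM with AG636. The mean sums with vehicle and AG636 were 1794 and 1331 CPM for outer and 661 and 500 CPM for inner membrane members. By this measure the classes fell by similar shares, unlike their medians. The groups did not overlap in either class. All AG636 samples were below all vehicle samples for 5 outer and 5 inner membrane members, against 20.6% of all genes tested. The inner membrane median moved with single samples, from -0.23 without Vehicle replicate 1 to -0.47 without AG636 replicate 2, and was -0.25 with library size alone. When genes with few counts were kept, the outer membrane median was -0.35 and the inner membrane median -0.37, so the order of the classes turned round.

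The channel and most receptors of the TOM complex were called lower. Tomm40 (chr7:19701313-19715438, minus strand, mm10) encodes the beta-barrel channel through which precursors pass. Its level was 234, 129 and 125 CPM with vehicle and 92.8, 95.9 and 62.3 CPM with AG636. Vehicle replicate 1 stood far above the other two, yet the groups did not overlap. The log2 fold change of Tomm40 was -0.96 with a standard error (SE) of 0.25 (adjusted p = 0.0261, edgeR). Without Vehicle replicate 1 it was -0.62 and the call was lost (adjusted p = 0.0519). Without AG636 replicate 1 or AG636 replicate 3 the call for Tomm40 was also lost, at adjusted p = 0.0596 and 0.0922. Its annotated exons share 258 bases with the antisense gene Gm20512, and whether counting used strand is not stated.

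Tomm20 and Tomm70a encode the receptors for presequence and for carrier-type precursors. Tomm20 (chr8:126930667-126945844, minus strand) was at 488, 420 and 456 CPM with vehicle and at 293, 336 and 255 CPM with AG636, for a log2 fold change of -0.62 (SE 0.13, adjusted p = 0.0115). Tomm70a (chr16:57121703-57156705, plus strand) was at 273, 196 and 237 CPM with vehicle and at 146, 173 and 128 CPM with AG636, for a log2 fold change of -0.66 (SE 0.16, adjusted p = 0.0184). In both receptor genes all AG636 samples lay below all vehicle samples. The call for Tomm70a was lost without AG636 replicate 1 (adjusted p = 0.0616) or AG636 replicate 3 (adjusted p = 0.0717). Tomm22, the central receptor that links the channel to the other receptors, was at 186, 145 and 172 CPM with vehicle and at 144, 130 and 129 CPM with AG636. Vehicle replicate 2 and AG636 replicate 1 nearly met, and Tomm22 was not called (log2 fold change -0.32, SE 0.13, adjusted p = 0.0986).

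The small subunits of the channel did not share a pattern. Tomm5 (chr4:45105208-45108114, minus strand), a small TOM subunit that sits beside the channel, was at 234, 198 and 189 CPM with vehicle and at 118, 124 and 98.5 CPM with AG636. The gap between the groups was wide relative to the spread within them. With a log2 fold change of -0.87 (SE 0.14, adjusted p = 0.00457), Tomm5 had the lowest adjusted p among the members. Tomm7, another small subunit of the complex, was at 536, 510 and 568 CPM with vehicle and at 578, 488 and 523 CPM with AG636. The groups of Tomm7 overlapped fully, with a log2 fold change of -0.02 (SE 0.11, adjusted p = 0.901). Tomm6 had 23 counts over all samples and was not tested. Of its exon bases, 76.0% lie on the same strand as exons of Gm21981, so its low count is uncertain. Tomm20l, a paralog of Tomm20, had 3 counts in all and was not tested.

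Tomm40l, the paralog of the channel gene, was at 30.0, 24.1 and 31.6 CPM with vehicle and at 28.2, 22.1 and 24.0 CPM with AG636. The groups overlapped and Tomm40l was not called (log2 fold change -0.20, SE 0.18, adjusted p = 0.454). Of its exon bases, 64.3% overlap Nr1i3 on the opposite strand, a gene with 0 counts in these samples.

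**Figure D2:**
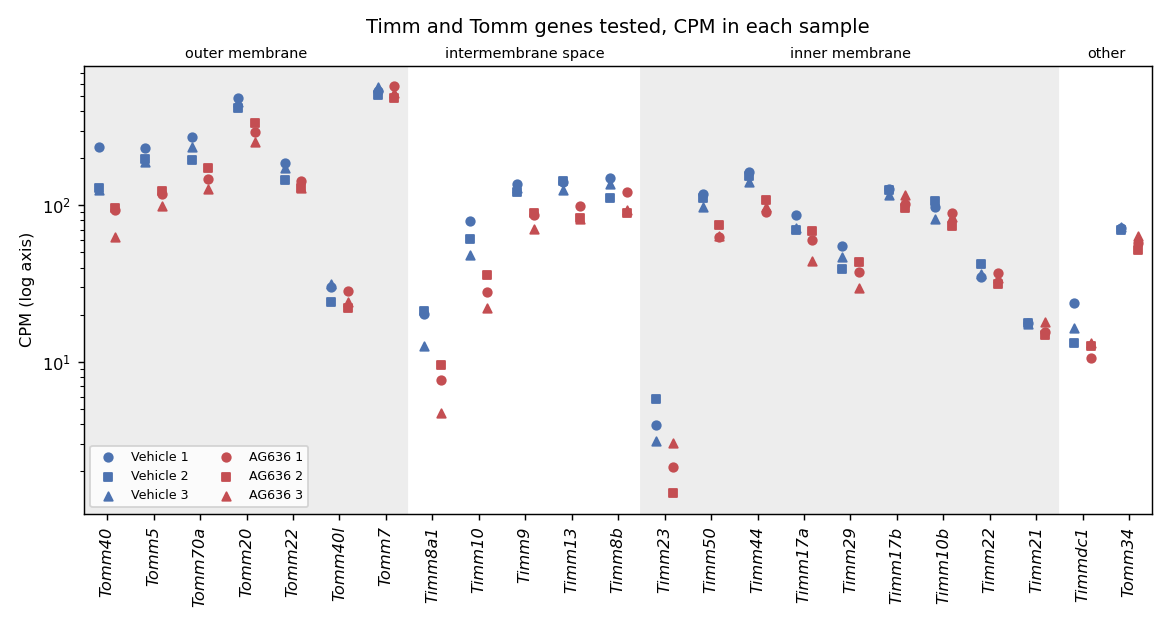
Each point is the CPM of a tested member in a sample, on a log axis, with vehicle in blue and AG636 in red and the marker shape giving the replicate number. Tomm5, Tomm20, Timm9 and Timm44 show a gap between the groups, while Tomm7 lies between 488 and 578 CPM in all 6 samples.

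The chaperones of the intermembrane space held the members with the largest fold changes. Timm9 and Timm10 encode the partners of a hexamer that carries hydrophobic precursors. Timm10 (chr2:84826997-84830213, plus strand) was at 79.3, 60.6 and 48.3 CPM with vehicle and at 27.8, 35.7 and 22.1 CPM with AG636. Timm9 (chr12:71123173-71136684, minus strand) was at 136, 122 and 130 CPM with vehicle and at 86.9, 89.1 and 70.2 CPM with AG636. Neither gene had groups that overlapped. The log2 fold change was -1.14 for Timm10 (SE 0.23, adjusted p = 0.00971). That of Timm9 was -0.66 (SE 0.13, adjusted p = 0.0103). The mean level of Timm10 with AG636 was thus 45.5% of its mean with vehicle, and that of Timm9 was 63.5%.

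Timm8a1 and Timm13 encode the partners of a second chaperone hexamer, and Timm8b is a paralog of Timm8a1. Timm8a1 (chrX:134537256-134541865, minus strand) was at 20.3, 21.1 and 12.5 CPM with vehicle and at 7.65, 9.49 and 4.72 CPM with AG636. The groups did not overlap, and the lowest sample of each was replicate 3. Its log2 fold change of -1.31 (SE 0.30, adjusted p = 0.0158) was the lowest among the members and rested on 442 counts in all. The call for Timm8a1 was lost without Vehicle replicate 2 (adjusted p = 0.0625) or AG636 replicate 3 (adjusted p = 0.0581). Timm13 (chr10:80899450-80900969, minus strand) was at 142, 143 and 125 CPM with vehicle and at 99.2, 83.5 and 81.4 CPM with AG636, for a log2 fold change of -0.63 (SE 0.13, adjusted p = 0.0111). No AG636 sample of Timm13 reached the vehicle range. Timm8b was at 150, 111 and 136 CPM with vehicle and at 121, 89.5 and 93.3 CPM with AG636. Here the groups overlapped and the gene was not called (log2 fold change -0.38, SE 0.16, adjusted p = 0.109). Timm8b shares 81 exon bases, 15.6% of its exons, with the opposite strand gene Nkapd1, which had 1985 counts. Timm8a2, a further paralog, had 5 counts in all and was not tested.

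In the inner membrane, Timm50 and Timm44 were called lower. Timm50 (chr7:28305516-28312072, minus strand) encodes the receptor of the TIM23 complex that meets presequences in the intermembrane space. It was at 118, 111 and 97.8 CPM with vehicle and at 62.9, 74.9 and 63.6 CPM with AG636, for a log2 fold change of -0.70 (SE 0.13, adjusted p = 0.00857). Timm44 (chr8:4259731-4275913, minus strand) encodes the scaffold that ties the matrix Hsp70 to the channel. Its level was 163, 153 and 140 CPM with vehicle and 91.1, 107 and 97.8 CPM with AG636, for a log2 fold change of -0.62 (SE 0.12, adjusted p = 0.00947). The groups of both genes were apart in all samples.

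Timm23, Timm17a and Timm17b of the TIM23 complex and Timm22 of the TIM22 complex did not pass the threshold. Timm23, the namesake subunit of the presequence translocase, was at 3.92, 5.76 and 3.13 CPM with vehicle and at 2.12, 1.44 and 3.02 CPM with AG636. The lowest vehicle sample and the highest AG636 sample differed by little, and the gene was not called (log2 fold change -0.97, SE 0.40, adjusted p = 0.107). Timm23 had 114 counts in all. Over 475 of the last 500 bases of its transcript it is identical to the annotated gene Gm10273, so reads may have been split or dropped and its level is uncertain. Timm17a, whose product forms the translocation path together with Timm23, was at 86.3, 69.1 and 71.3 CPM with vehicle and at 60.3, 68.3 and 44.0 CPM with AG636. AG636 replicate 2 came close to the vehicle range, and Timm17a was not called (log2 fold change -0.39, SE 0.18, adjusted p = 0.135). Its paralog Timm17b was at 127, 126 and 116 CPM with vehicle and at 103, 96.5 and 116 CPM with AG636 (log2 fold change -0.23, SE 0.12, adjusted p = 0.198).

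Timm22, the channel subunit of the carrier translocase, was at 34.9, 42.1 and 36.1 CPM with vehicle and at 36.7, 31.5 and 34.4 CPM with AG636. The groups overlapped, with a log2 fold change of -0.14 (SE 0.15, adjusted p = 0.531). Timm29 and Timm10b, which encode further parts of the same complex, had log2 fold changes of -0.34 (SE 0.19, adjusted p = 0.215) and -0.21 (SE 0.14, adjusted p = 0.305). Timm10b was at 98.1, 106 and 81.9 CPM with vehicle and at 89.6, 73.6 and 84.2 CPM with AG636, so that its groups overlapped. Exons of Timm29 and Timm10b overlap the opposite strand genes Yipf2 and Arfip2 by 107 and 277 bases, and those of Timm10b share 376 bases (10.5%) with Gm45799 on the same strand, which had 25 counts, so their counts are uncertain in part. Timm21, which joins the TIM23 complex to other complexes, had a log2 fold change of -0.13 (SE 0.18, adjusted p = 0.627). Of the members outside the translocases, Tomm34 was at -0.31 (SE 0.13, adjusted p = 0.120) and Timmdc1 at -0.55 (SE 0.25, adjusted p = 0.140). The end of the Timmdc1 transcript holds a stretch that matches 22 other annotated genes at 95% identity or more, which makes its counts uncertain.

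**Figure D3:**
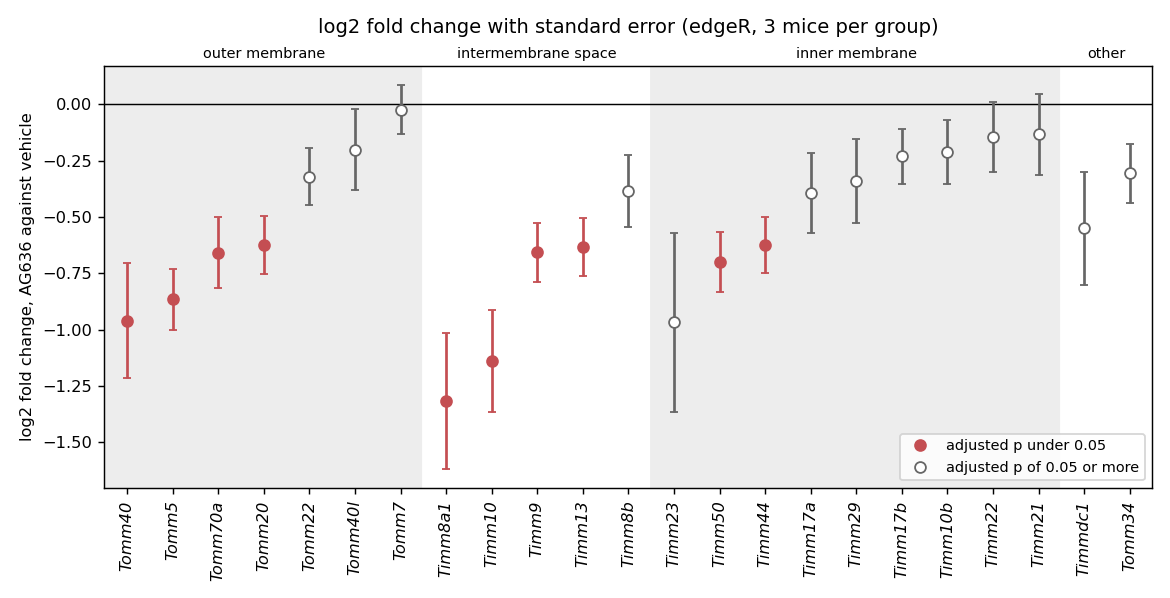
Points are the log2 fold changes of the 23 tested members, AG636 against vehicle, and bars are their standard errors, with 3 mice per group. Filled red points mark an adjusted p under 0.05 and open points the rest: 4 of 7 outer membrane, 4 of 5 intermembrane space and 2 of 9 inner membrane members are filled.

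Paralogs and partner genes were compared within each sample as a log2 ratio of their counts, which does not depend on the scaling of the libraries. With 3 samples against 3, the smallest two-sided p of an exact permutation test is 0.1, so no pair could reach 0.05, and 8 pairs were compared. For Timm10 against Timm10b the log2 ratio was -0.31, -0.81 and -0.76 with vehicle and -1.69, -1.05 and -1.93 with AG636. The groups did not overlap and the mean differed by -0.93 (exact permutation p = 0.1, adjusted p = 0.4). Grpel1 against Grpel2, nucleotide exchange factors of the import motor, had a ratio that differed by -0.26, again without overlap (exact permutation p = 0.1, adjusted p = 0.4). Of the 11092 genes tested, taken singly, the groups were also without overlap for 2286 that were lower with AG636 and 2276 that were higher. A share over gene pairs in general was not computed. The groups overlapped in the other 6 pairs. The difference was -0.94 for Timm8a1 against Timm8b and -0.72 for Tomm40 against Tomm40l (exact permutation p = 0.2 for each, adjusted p = 0.4). It was -0.18 for Timm17a against Timm17b (exact permutation p = 0.7), 0.07 for Dnajc19 against Dnajc15 (exact permutation p = 0.7) and 0.28 for Timm50 against Timm23 (exact permutation p = 0.6). The receptor genes Tomm20 and Tomm70a kept a log2 ratio of 0.96 ± 0.13 with vehicle and 0.99 ± 0.02 with AG636 (SD, n = 3 each), a difference of 0.02 (exact permutation p = 0.7).

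**Figure D4:**
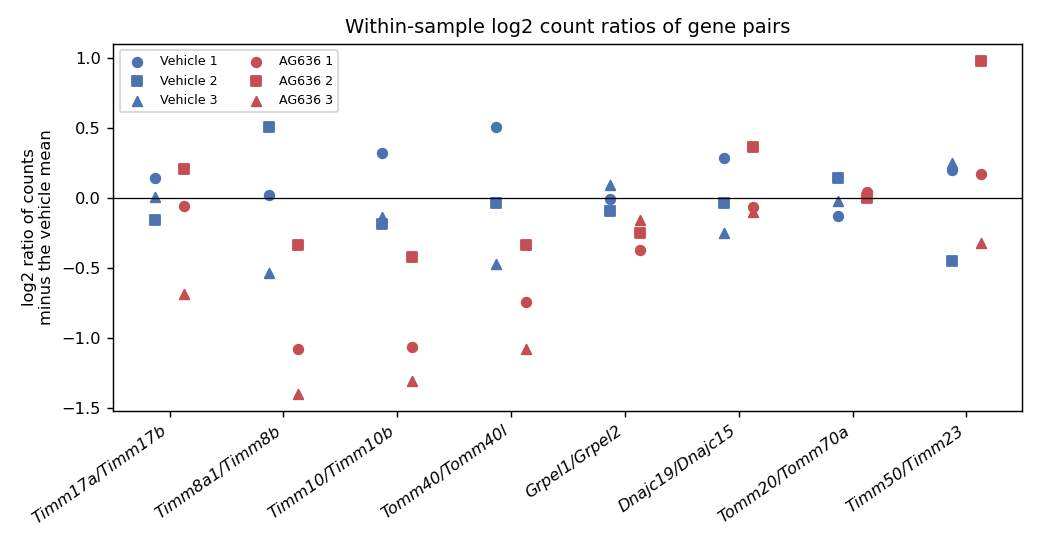
Each point is the log2 ratio of the counts of a gene pair in a sample, minus the mean of that ratio over the vehicle samples, with vehicle in blue and AG636 in red. For Timm10/Timm10b and Grpel1/Grpel2 every AG636 sample lies below every vehicle sample, and the other 6 pairs overlap.

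A list of 22 partner genes was read in the same way. It holds the disulfide relay, the import motor, the presequence peptidases, the sorting and assembly machinery of the outer membrane, and insertion factors. All 22 were tested, 5 were called lower and 0 were called higher by edgeR, DESeq2 and limma-voom alike, against 11.0% and 10.3% of all genes tested. In edgeR 10 had an unadjusted p under 0.05, all lower, against 18.4% of all genes tested. The median log2 fold change was -0.33, and 21 of the 22 values were negative. Both genes of the disulfide relay, which oxidises the small TIM chaperones, were called lower. Chchd4, the oxidoreductase that folds them, was at 119, 90.6 and 107 CPM with vehicle and at 58.8, 76.5 and 54.9 CPM with AG636 (log2 fold change -0.73, SE 0.16, adjusted p = 0.0142). Gfer, the sulfhydryl oxidase that reoxidises Chchd4, was at 91.1, 96.7 and 84.4 CPM with vehicle and at 59.9, 64.1 and 58.3 CPM with AG636 (log2 fold change -0.58, SE 0.12, adjusted p = 0.0126). The groups of both genes were apart.

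Hspa9, the Hsp70 that drives the import motor, was at 495, 388 and 438 CPM with vehicle and at 243, 292 and 201 CPM with AG636. All AG636 samples were below the vehicle range (log2 fold change -0.84, SE 0.15, adjusted p = 0.00691). Grpel1 was at 68.1, 62.5 and 71.9 CPM with vehicle and at 47.8, 40.0 and 42.7 CPM with AG636 (log2 fold change -0.63, SE 0.14, adjusted p = 0.0129). Its paralog Grpel2 had a log2 fold change of -0.37 (SE 0.17, adjusted p = 0.152). The J-domain cochaperone genes Dnajc19 and Dnajc15 were at -0.30 (SE 0.19, adjusted p = 0.281) and -0.38 (SE 0.15, adjusted p = 0.0915). Mtch2, an insertase of the outer membrane, was at 214, 193 and 205 CPM with vehicle and at 148, 145 and 137 CPM with AG636 (log2 fold change -0.51, SE 0.11, adjusted p = 0.0131). Calls in this list depended on AG636 replicate 3: without it, Hspa9 alone passed the threshold. Chchd4 also lost its call without AG636 replicate 1 (adjusted p = 0.0551). None of the 5 peptidase genes and none of the 4 genes of sorting and assembly was called by edgeR, DESeq2 or limma-voom, and 2 in each group had an unadjusted p under 0.05 in edgeR, against 37.1% of all genes tested in either direction. The lone positive value belonged to Agk, whose product is a lipid kinase and a subunit of the TIM22 complex (log2 fold change 0.43, SE 0.24, adjusted p = 0.227). It was singled out after its value was seen.

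Several import genes start next to a gene on the other strand, within 1000 bases. Of 8 such neighbours, 7 were tested and 0 were called by edgeR, DESeq2 or limma-voom, with 1 at an unadjusted p under 0.05 in edgeR. Over all genes tested these shares were 11.0% called lower, 10.3% called higher and 37.1% at an unadjusted p under 0.05, so 7 genes say little about neighbours. The lowest adjusted p was that of Pqbp1 beside Timm17b, with a log2 fold change of -0.29 (adjusted p = 0.0928). Timm9 was the sole member called lower that has such a neighbour. Its own log2 fold change was -0.66, and that of 2700049A03Rik, whose start lies 164 bases away, was 0.41 (SE 0.19, adjusted p = 0.150). Timm8b starts 98 bases from Sdhd, a subunit of respiratory complex II, which was at 0.27 (SE 0.40, adjusted p = 0.663).

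Promoter windows were read because 10 of these genes were called lower together. Windows of 250 bases before to 50 bases after the start, taken from RefSeq on GRCm38.p6, were matched by symbol for 23 of the 26 members. They were searched on both strands for 5 short motifs. Timm22 and Tomm34 had windows at different starts, and a gene was counted if any of its windows held the motif. The E-box CACGTG, which reads the same on both strands and is bound by Myc and related factors, was in 5 of the 23 members with a window. Of the 10 members called lower, 4 held it (Timm8a1, Timm9, Timm10 and Tomm20). Of the 10 tested members with a window that were not called, 0 held it. The members without a window, Timm21, Tomm7 and Tomm40l, were all tested and not called, so their promoters are missing from this comparison. The remaining window with an E-box is that of Tomm20l, which was not tested. The share was 12.3% among all genes tested that have a window, 18.2% among all genes called lower and 8.38% among all genes called higher. The 7 E-box stretches of these members are given here for comparison, each 30 bases long, 5′ to 3′ on the strand of the gene, with the E-box in capitals.

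Timm10, chr2:84827037-84827066, plus strand: ccggaagtgaccCACGTGcttcttatttcg
Timm8a1 upstream, chrX:134541889-134541918, minus strand: ccttcagtggacCACGTGggatgaagcaac
Timm8a1 past the start, chrX:134541629-134541658, minus strand: ccgtcacccagaCACGTGaaggtcggcaag
Timm9 upstream, chr12:71136716-71136745, minus strand: cctacattttccCACGTGgtaacgaatctg
Timm9 at the start, chr12:71136659-71136688, minus strand: catcactgccccCACGTGttctcagctttc
Tomm20, chr8:126946030-126946059, minus strand: gcacgccacaaaCACGTGctgcccctgacc
Tomm20l, chr12:71111391-71111420, plus strand: ccggggtttgctCACGTGtggctggcccgt

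In Timm9 the E-boxes began 58 bases and 1 base before the RefSeq start. In Tomm20 the E-box began 126 bases before it. In Timm8a1 they began 236 bases before the start and at base 25 after it, and in Timm10 at base 29 after it. The RefSeq starts differ from the gene bounds printed above, most of all in Timm8a1 and Tomm20, so these positions depend on the annotation. The wider windows of Timm9 and Tomm20 follow, from 250 bases before the start, because they place these E-boxes in their surroundings. That of Timm9 runs on to the end of its second E-box.

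Timm9, chr12:71136671-71136925, minus strand: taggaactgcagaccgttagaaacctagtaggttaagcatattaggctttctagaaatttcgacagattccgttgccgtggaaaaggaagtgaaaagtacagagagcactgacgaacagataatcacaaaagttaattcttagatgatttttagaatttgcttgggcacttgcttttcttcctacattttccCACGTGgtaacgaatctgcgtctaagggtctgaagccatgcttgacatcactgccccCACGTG
Tomm20, chr8:126945922-126946171, minus strand: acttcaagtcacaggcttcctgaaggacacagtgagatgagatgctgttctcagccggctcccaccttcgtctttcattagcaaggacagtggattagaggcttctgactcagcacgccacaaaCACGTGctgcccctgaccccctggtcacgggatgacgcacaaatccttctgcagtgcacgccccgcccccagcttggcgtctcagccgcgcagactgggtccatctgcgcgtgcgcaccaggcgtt

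The ETS motif CCGGAAG was in 10 of the 23 members with a window. It was in 2 of the 10 members called lower (Timm10 and Tomm70a) and in 7 of the 10 that were tested and not called. Its share was 22.7% among all genes tested, 27.7% among all genes called lower and 10.5% among all genes called higher. The letters ATGGCGGC, a core of the YY1 motif that was searched because the study is concerned with that factor, were in 2 windows. Both belong to inner membrane genes called lower, Timm44 and Timm50, where the match began at base 19 and at base 15 after the start. These letters open with ATG, and whether they are the start of the coding sequence in the 2 genes was not checked. The share of genes with the letters was 6.33% among genes tested, 6.92% among genes called lower and 2.38% among genes called higher. The matches are given with their surroundings, with the core in capitals.

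Timm44, chr8:4275869-4275898, minus strand: gctcttccaacATGGCGGCggcagctctgc
Timm50, chr7:28312014-28312043, minus strand: gtcagcgcaagATGGCGGCctcggcggctc

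The core GCGCATGC of the NRF1 motif, bound by a regulator of nuclear genes for mitochondrial proteins, was in the window of Timm13 and no other member, against 6.65% of genes tested. The ATF4 composite TGATGCAAT was in none of the 23 members with a window, against 0.135% of genes tested. With so rare a match, its absence from a list of this size says little. In Timm10, ETS matches on opposite strands begin at bases 14 and 17 after the start and overlap each other, and the E-box follows them. These matches are a description of the letters in these windows.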

How the data were processed

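Libraries were made with a 3′ mRNA kit, and the authors deposited raw read counts per gene for 6 samples. Per the labels, reads were trimmed with cutadapt 1.9.1, aligned to mm10 with HISAT2 2.0.4 and counted with featureCounts of Subread 1.5.0-p3. The annotation release and the use of strand are not given in the sources used here.

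Members and lists were chosen with earlier results of these data known. All members are accounted for. Those past the threshold, both genes of each pair and the central subunits are named with their values, and partners only if called or paired. Counts were tested in R 4.3.3 with edgeR 4.0.16 (genes kept by filterByExpr at its settings of 10 counts and a total of 15, TMM, quasi-likelihood test, Benjamini-Hochberg over all genes tested). Standard errors were derived from the test, as the size of the log2 fold change divided by the square root of its F statistic. CPM use TMM-scaled library sizes. Transcript ends were compared with BLAST 2.17.0. Alternatives were DESeq2 1.42.0, limma-voom 3.58.1, other scalings and filters, a replicate block, a stricter threshold and leaving out each sample. Floors of 3 counts cover counting error only. No pair of replicates agreed within sampling noise. The study describes no molecular identifiers. A marker gene of the erythroid list is not reported here.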

Additional observations from a re-analysis of the deposited data

How the results depend on the processing

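Of the 10 members called lower, 7 kept their call in all 13 settings tried at the threshold of 0.05. The exceptions, Timm8a1, Tomm40 and Tomm70a, lost it only when a sample was left out. Members called lower numbered 7 to 10 with a sample left out and 4 at an adjusted p under 0.01 (edgeR). At that threshold 325 genes were called lower, 231 higher, and 1 partner lower. Leaving out a sample gave 452 to 1298 genes called lower, 399 to 1074 called higher and 1 to 6 partners called lower, the lowest each time without AG636 replicate 3. The inner membrane median was -0.47 to -0.23 over these fits and -0.25 with library size alone, and the outer membrane median was -0.35 with no filter, which adds genes of few counts and leaves the inner membrane median at -0.37. Timm8b was called with no filter (adjusted p = 0.0475). Of all calls, 51.6% were lower in the main scaling and 38.1% with library size alone, which moved the median of all genes by 0.09. Tomm7 changed sign with library size alone (0.065) and with a sample left out (-0.093 to 0.032). With a sample left out, the ratio differences that changed sign ranged as follows: Timm17a/Timm17b -0.37 to 0.076, Dnajc19/Dnajc15 -0.079 to 0.21, Tomm20/Tomm70a -0.038 to 0.096 and Timm50/Timm23 -0.073 to 0.58. The cause of these changes was not tested. Replicate numbers did not pair the samples: same-numbered samples had correlated deviations of -0.06, -0.18 and 0.22, and not every sample correlated best with its own number. With a replicate block, 10 members were called lower, as were 1046 genes in all. Depth limits Timm23, Timm8a1, Tomm6, Tomm20l and Timm8a2, which have few counts. With 3 animals a group, p-values set the difference between the groups against the spread between these samples. As the samples may share a leukemic origin, that spread may not stand for separate leukemias.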
